A study of Mus musculus with 15 samples.

Results

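Lymphocytes that have not met antigen rest outside the cell cycle, and this quiescence is held by transcription factors and by proteins that shorten messenger RNA. Krüppel-like factors (KLFs) are zinc finger proteins that bind GC-rich promoter DNA, and KLF2 is known for keeping resting lymphocytes out of cycle and for driving their homing receptors. FOXP1 and FOXO3 are forkhead transcription factors, the second of which is removed from the nucleus when antigen or growth factor signals activate AKT. BTG1, BTG2 and TOB1 are antiproliferative proteins that bring the CCR4-NOT deadenylase to messenger RNA. Expression of 10 such quiescence factors, *Klf2*, *Klf3*, *Klf4*, *Klf6*, *Klf13*, *Foxp1*, *Foxo3*, *Tob1*, *Btg1* and *Btg2*, is described here. They were taken by symbol from the 21669 genes with a symbol in an RNA-seq table, and all 10 were among the 11299 genes tested.

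The samples were B cells of female C57BL/6J wild-type mice. Naive B cells (nB) were splenic cells left after CD43 depletion, with no stimulation and no drug. Activated B cells (actB) were sorted as B220+GL7+CD138- and plasmablasts (Pb) as CD138+ from 3-day cultures of such cells with LPS, Il2 and Il5, to which the vehicle DMSO or 2 µM GSK343, an inhibitor of the H3K27 methyltransferase EZH2, was added. The labels of the 3 Pb GSK343 libraries name Il6 in place of Il5, so that drug and this label cannot be told apart in Pb. The nB cells were not cultured, so that activation and culture also cannot be told apart in any comparison with nB. Both actB and Pb came from 3-day cultures, so no time order between them was measured. Words such as fall, rise, step and course below name differences between the sorted populations.

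Each of the 5 groups had 3 libraries of 19421830 to 26307413 reads. Levels are given as RPKM, reads per kilobase of gene length per 1000000 reads. Columns of nB replicates 1 and 2 differed by less than sampling noise (chi-square per degree of freedom 0.00958, against at least 3.577 for other replicate pairs) and were counted as 1 sample, so that nB had n = 2. Replicate 2 of every cultured group stood apart from replicates 1 and 3. In actB its values were 23.4 and 26.7 with DMSO, against 3.80 between the other two, and 16.7 and 29.7 with GSK343, against 6.07. In Pb they were 9.73 and 11.1 with DMSO, against 3.58, and 7.64 and 11.4 with GSK343, against 3.68. The study describes its RNA-seq samples as biological replicates, but the labels do not state whether they came from separate animals or cultures, and p-values measure the spread between these samples.

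B cell markers were present in all groups, and 8 of them summed to 3943 to 4015 RPKM in nB, 1936 to 2229 in actB with DMSO and 935 to 954 in Pb with DMSO. The plasmablast regulator *Prdm1* averaged 31.3 RPKM in actB and 121 in Pb. The nB libraries also carried markers of other cells. Summed RPKM of 8 myeloid markers was 195 to 239 in nB, 4.14 to 5.44 in actB with DMSO and 0.484 to 0.932 in Pb with DMSO. Sums of 8 T cell markers were 44.6 to 46.5, 5.06 to 6.29 and 1.99 to 3.14, with *Cd3e* at 2.64 RPKM in nB, 0.00952 in actB and 0 in Pb. Sums of 4 NK cell markers were 12.2 to 14.8, 0.235 to 0.807 and 0.725 to 0.934. Sums of 5 erythroid markers were 82.6 to 305, 9.34 to 13.2 and 1.41 to 2.22. Those of 5 stromal and endothelial markers were 112 to 113, 38.5 to 48.0 and 9.47 to 11.1. In each group 4 of these 5 averaged below 1 RPKM, so that the sum came mainly from *Pecam1*, the only one tested. Immediate early genes, which respond within minutes to stimulation and handling, summed to 1818 to 2032 RPKM in nB, 226 to 286 in actB and 232 to 260 in Pb (18 genes). The part of these signals in the results against nB was not tested. Less RNA per cell and fewer cells that express a gene cannot be told apart in such bulk samples.

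**Figure D1:**
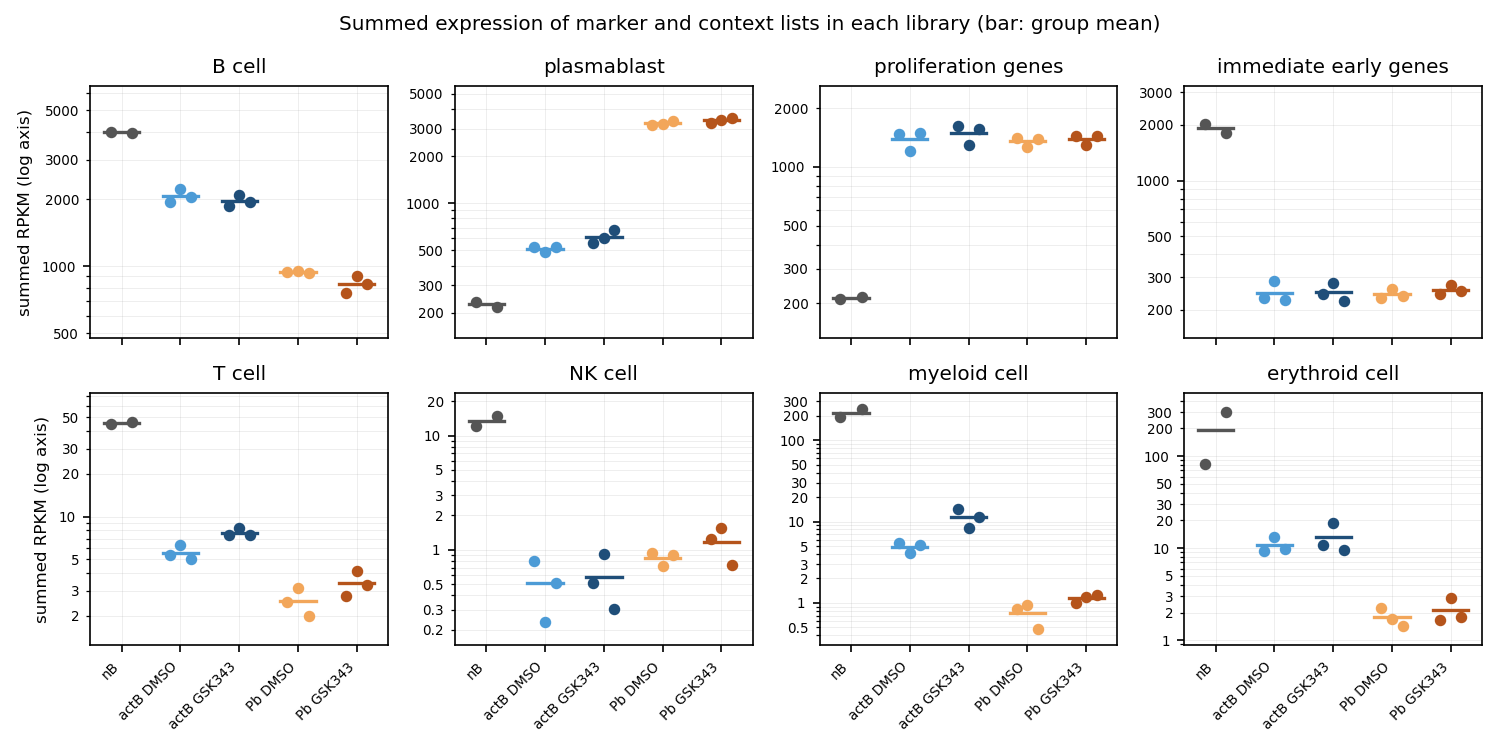
Summed RPKM (log axis) of marker and context lists in each library (points) with the group mean (bars), for nB (n = 2) and for actB and Pb with DMSO or GSK343 (n = 3 each). T, NK, myeloid and erythroid markers and immediate early genes were highest in nB, whereas the proliferation genes were lowest there (211 to 216 RPKM in nB, 1209 to 1497 in actB with DMSO).

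Promoter sequence is shown for 3 of the genes whose levels separate the courses described below, *Klf2* and *Btg1*, which fell from nB to actB and again to Pb, and *Btg2*, which fell and then rose. The sequences are RefSeq promoters placed on mm9 by exact match, read 5′ to 3′ on the gene's strand and lying wholly before the annotated transcribed part. They cover chr8:74842711-74842931 on the plus strand for *Klf2*, chr10:96079385-96079634 on the plus strand for *Btg1* and chr1:135975733-135975982 on the minus strand for *Btg2*. Capitals mark a MEF2 box in *Klf2*, a forkhead motif (GTAAACA, here on the opposite strand) in *Btg1* and a cyclic AMP response element (CRE, TGACGTCA) in *Btg2*.
Klf2: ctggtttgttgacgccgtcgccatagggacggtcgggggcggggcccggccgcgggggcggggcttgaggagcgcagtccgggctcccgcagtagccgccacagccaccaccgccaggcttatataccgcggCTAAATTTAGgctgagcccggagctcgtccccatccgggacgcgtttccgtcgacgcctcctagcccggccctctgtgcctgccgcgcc
Btg1: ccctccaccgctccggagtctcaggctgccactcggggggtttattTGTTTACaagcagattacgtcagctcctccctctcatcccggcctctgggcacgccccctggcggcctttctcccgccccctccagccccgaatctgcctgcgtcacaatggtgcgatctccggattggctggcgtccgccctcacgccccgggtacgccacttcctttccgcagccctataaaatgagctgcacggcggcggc
Btg2: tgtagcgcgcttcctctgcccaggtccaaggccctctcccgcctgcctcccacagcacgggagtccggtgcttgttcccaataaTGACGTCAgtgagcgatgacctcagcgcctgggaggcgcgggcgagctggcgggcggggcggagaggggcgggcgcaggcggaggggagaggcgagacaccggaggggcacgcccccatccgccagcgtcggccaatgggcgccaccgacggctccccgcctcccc

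These motifs were searched on both strands in the 250 bases before each RefSeq start, and were chosen after the sequences had been seen. All 10 genes matched RefSeq, with 12 promoters in all. The MEF2 box lay 118 bases before the RefSeq start of *Klf2* and was held by 0.508% of 32851 promoters. The *Klf2* sequence shown, of 221 bases, was cut at the annotated gene start and ends short of that RefSeq start. The forkhead motif lay 204 bases before the start of *Btg1* (3.17% of promoters), and the CRE lay 166 bases before that of *Btg2* (1.55%). None of these 3 motifs was found in the windows of the other genes. The GC box GGGCGG, of the kind KLFs bind, was present for all 10 genes and in 32.7% of all promoters, and CCAAT was present for 6 of the 10 and in 33.8% of all promoters. A match is a run of letters and no evidence of binding, and no factor binding was measured here.

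Activation was addressed by comparing actB with nB, both without drug. All 10 quiescence factors were lower in actB than in nB, where 36.3% of the 11299 genes tested were called lower and 40.9% higher (limma, adjusted p under 0.05). Their median log2 fold change was -1.91, beside 0.05 over all genes tested. The 10 genes took 0.414% to 0.436% of the reads of an nB library and 0.104% to 0.123% in actB with DMSO. The count stayed at 10 with edgeR on recovered reads and without replicate 2 of every cultured group.

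**Figure D2:**
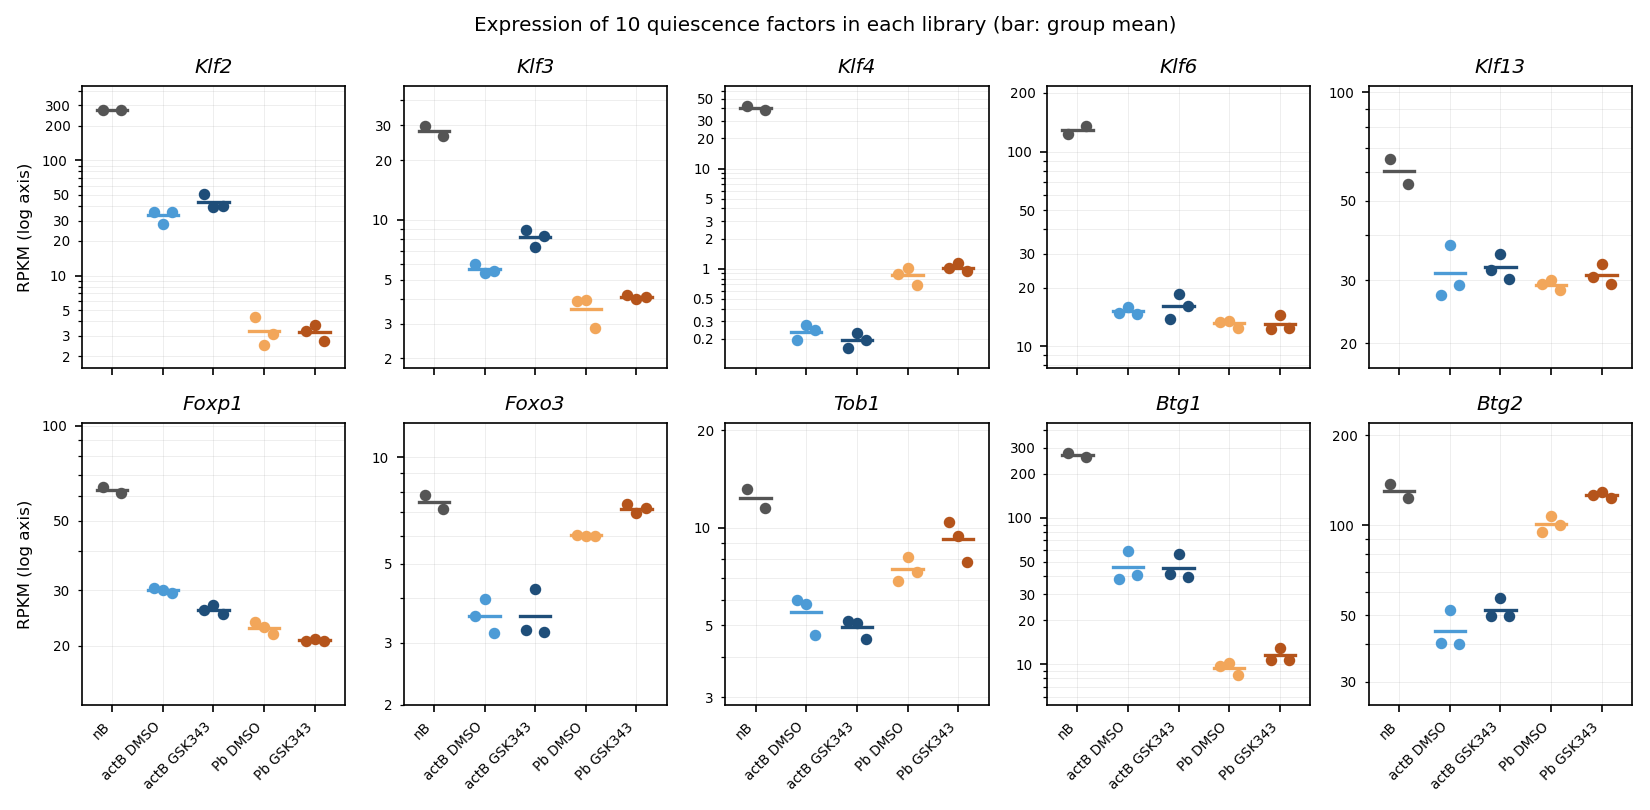
RPKM (log axis) of the 10 quiescence factors in each library (points) with group means (bars) in nB (n = 2) and in actB and Pb with DMSO or GSK343 (n = 3 each). Every gene was highest in nB by group mean, *Klf2* and *Btg1* stepped down again in Pb, and *Btg2*, *Foxo3*, *Tob1* and *Klf4* were higher in Pb than in actB.

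*Klf2* (Entrez 16598, chr8:74842932-74845555 in mm9, plus strand) measured 273 and 275 RPKM in nB and 35.8, 27.8 and 35.9 in actB with DMSO. The groups were far apart, and the nB mean was 8.26 times that of actB (log2 fold change -3.05 ± 0.20 SE, limma adjusted p = 2.3e-08). In Pb with DMSO *Klf2* was at 4.36, 2.50 and 3.12 RPKM, from 93 to 154 reads a library. This was a further fall of similar size on the log2 scale (-3.25 ± 0.18 against actB, adjusted p = 7.4e-09), which left Pb at 1.21% of the nB mean. *Klf2* was thus the first of the 10 genes by level in nB and the ninth in Pb. Its level was not distinguished from that of *Btg1* in nB (259 to 279 RPKM), since their ranges overlapped.

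KLF2 is known to control homing receptor genes, and all 6 of those tested were lower in actB than in nB, led by *S1pr1*, the receptor for exit from lymphoid organs (log2 fold change -5.02), and *Itgb7*, an integrin chain for gut homing (-4.11). From actB to Pb 5 of the 6 were lower, among them the chemokine receptor gene *Ccr7* (-2.77). This list's median was -2.06 for actB against nB and -1.03 for Pb against actB.

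*Klf3* (Entrez 16599, chr5:65194628-65221368, plus strand), which encodes a repressor, fell along the same course at a lower level. It measured 29.6 and 26.5 RPKM in nB, 6.02, 5.41 and 5.54 in actB with DMSO and 3.89, 3.95 and 2.85 in Pb with DMSO, with no overlap between groups. The log2 fold change was -2.26 ± 0.12 for actB against nB (adjusted p = 4.5e-09) and -0.64 ± 0.11 for Pb against actB (adjusted p = 0.00022).

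*Klf4* (Entrez 16600, chr4:55540013-55545347, minus strand), a factor that restrains proliferation in B cells, nearly vanished on activation. It measured 41.7 and 38.6 RPKM in nB against 0.194, 0.272 and 0.244 in actB with DMSO, where a library held 14 to 20 reads. The ratio of the means was 170, and the log2 fold change, which the pseudocount of 0.25 RPKM shrinks at such levels, was -6.38 ± 0.13 (adjusted p = 1.4e-12). In Pb with DMSO it measured 0.878, 1.03 and 0.695 RPKM from 44 to 64 reads, above all actB libraries (log2 fold change 1.19 ± 0.12, adjusted p = 1.8e-06). The ratio of these means was 3.66, and over the 13 alternative settings the log2 fold change ran from 0.59 (a pseudocount of 1 RPKM) to 1.98 (edgeR with RLE scaling on recovered reads), called in each. The Pb mean was 2.16% of the nB mean. The genes most like *Klf4* over the 14 libraries were the immediate early genes *Nr4a2* and *Fos* (Pearson r of 0.993 and 0.992), and *Fos* averaged 309 RPKM in nB, 0.563 in actB and 3.65 in Pb with DMSO. The libraries of a group share its cells and culture, so this and the other correlations over libraries describe mainly the differences between groups.

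*Klf6* (Entrez 23849, chr13:5860735-5869639, plus strand) and *Klf13* (Entrez 50794, chr7:71031237-71083801, minus strand) fell on activation and showed little further difference. *Klf6*, itself an early response gene in many cells, measured 124 and 136 RPKM in nB and 14.9, 16.0 and 14.7 in actB with DMSO (log2 fold change -3.07 ± 0.11, adjusted p = 7.0e-11). In Pb it measured 13.4, 13.6 and 12.5 RPKM, below all actB libraries by a small margin (-0.20, 95% interval -0.41 to 0.0048, adjusted p = 0.0753). With the replicate number as a block this difference passed the test (adjusted p = 0.0146). *Klf13*, which encodes a regulator of lymphocyte cytokine genes, measured 65.2 and 55.7 RPKM in nB, 27.3, 37.6 and 29.1 in actB and 29.2, 30.1 and 28.1 in Pb. It differed between actB and nB (-0.95 ± 0.12, adjusted p = 1.2e-05) but overlapped between Pb and actB (-0.09, 95% interval -0.33 to 0.15, adjusted p = 0.476).

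Of the 12 other *Klf* genes, 7 were expressed highly enough to be tested. From nB to actB 5 of these were lower and none higher, led by *Klf11* (log2 fold change -1.41) and *Klf10* (-1.21), both repressors induced by TGF-β. From actB to Pb 3 were lower, led by *Klf12* (-0.76) and *Klf11* (-0.55), and none was higher by limma.

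*Foxp1* (Entrez 108655, chr6:98875332-99216526, minus strand), which holds mature lymphocytes in a resting state, measured 64.0 and 61.1 RPKM in nB, 30.6, 30.0 and 29.5 in actB with DMSO and 23.8, 22.9 and 21.8 in Pb with DMSO. The steps were -1.05 ± 0.05 (adjusted p = 1.1e-09) and -0.39 ± 0.04 (adjusted p = 5.9e-06) on the log2 scale. Exons of *Foxp1* overlap those of *Eif4e3* on the same strand in the mm9 annotation, so that reads shared by both genes could not be assigned with certainty. The other 9 genes had no such overlap.

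*Foxo3* (Entrez 56484, chr10:41901647-41996561, minus strand) turned back in Pb. It measured 7.82 and 7.13 RPKM in nB, 3.55, 3.97 and 3.20 in actB with DMSO, and 6.04, 6.00 and 6.01 in Pb with DMSO. It was lower in actB than in nB (-1.02 ± 0.11, adjusted p = 3.4e-06) and higher in Pb than in actB (0.72 ± 0.10, adjusted p = 3.9e-05). Pb stood at 80.5% of the nB mean (-0.30 ± 0.11, adjusted p = 0.0268). That last call was lost without nB replicate 1-2 (-0.24, adjusted p = 0.167) and without Pb DMSO replicate 1, 2 or 3 (adjusted p = 0.0508, 0.0514 and 0.052). Among the 3 related genes tested, *Foxo1*, the main FOXO gene of B cells, was lower in actB (-1.62), as was *Foxo4* (-1.16). In Pb against actB *Foxo4* was higher (0.47) and *Foxp4* lower (-1.21), so the genes of this family did not move together at that step.

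Of 14 FOXO target genes tested, 12 were lower and 1 higher in actB than in nB, led by *Bcl6* (-2.95), a transcriptional repressor of germinal centre B cells, and *Irs2* (-2.57), an adaptor of insulin signalling. In Pb against actB 7 were higher and 6 lower, with *Trp53inp1*, a stress-induced antiproliferative gene, at 2.76.

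*Tob1* (Entrez 22057, chr11:94072768-94076809, plus strand) took the same turn as *Foxo3*. It measured 13.2 and 11.5 RPKM in nB, 6.01, 5.84 and 4.69 in actB with DMSO and 6.86, 8.16 and 7.32 in Pb with DMSO. It was lower in actB than in nB (-1.13 ± 0.13, adjusted p = 5.6e-06) and higher in Pb than in actB (0.42 ± 0.12, adjusted p = 0.00693), with no overlap at either step.

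*Btg1* and *Btg2*, paralogs with similar roles, parted in Pb. *Btg1* (Entrez 12226, chr10:96079635-96085447, plus strand) measured 279 and 259 RPKM in nB, 38.4, 59.5 and 40.9 in actB with DMSO and 9.74, 10.2 and 8.40 in Pb with DMSO. Its steps were -2.56 ± 0.18 (adjusted p = 5.8e-08) and -2.24 ± 0.16 (adjusted p = 1.0e-07), and Pb held 3.51% of the nB mean. The high value in actB was replicate 2. *Btg2* (Entrez 12227, chr1:135971747-135975697, minus strand) measured 138 and 123 RPKM in nB, 40.6, 52.3 and 40.1 in actB and 94.9, 108 and 100.1 in Pb. It fell by 1.56 ± 0.11 (adjusted p = 3.8e-08) and then rose by 1.19 ± 0.10 on the log2 scale (adjusted p = 2.5e-07). In actB with DMSO the ranges of both genes overlapped, whereas in Pb *Btg2* led the 10 genes by level and *Btg1* was the fifth. Pb remained below nB in *Btg2* (-0.37 ± 0.11, adjusted p = 0.00668), a call that was lost without nB replicate 1-2 (-0.29, adjusted p = 0.0794).

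In the BTG/TOB family, *Tob2* was lower in actB than in nB (-1.05) and *Btg3* was higher (0.66). *Btg3* was higher again in Pb than in actB (1.32). Of 14 genes for the CCR4-NOT complex and poly(A)-binding proteins, 9 were higher and 3 lower in actB than in nB, led by the subunit gene *Rqcd1* (1.19) and by *Tnks1bp1* (-1.11). In Pb against actB 2 were higher and 8 lower, led by *Rqcd1* (-0.57) and the deadenylase gene *Cnot8* (0.48).

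Counted over the step from actB to Pb without drug, 4 quiescence factors were higher (*Klf4*, *Foxo3*, *Tob1*, *Btg2*), 4 were lower (*Klf2*, *Klf3*, *Foxp1*, *Btg1*) and *Klf6* and *Klf13* were not called. Of all genes tested 27.3% were called higher and 42.4% lower, so that most genes changed at this step and the count among the 10 is to be read against that background. The median log2 fold change was -0.15 for the 10 and -0.12 for all genes. Scaling libraries to a common median raised all values by 0.117, which turned *Klf13* to 0.03 and left the 8 calls in place. The median-scaled split of all genes was 3843 higher and 3834 lower, beside 3086 and 4791 in the unscaled fit.

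For Pb against nB, all 10 were lower, with 41.1% of all genes called lower and 39.5% higher. The fold changes ran from -6.29 ± 0.20 for *Klf2* through -5.19 for *Klf4* and -4.80 for *Btg1* to -0.30 for *Foxo3* on the log2 scale. The calls in this comparison share their nB libraries with those for actB and their Pb libraries with those for Pb against actB, so that the 3 comparisons are not independent.

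**Figure D3:**
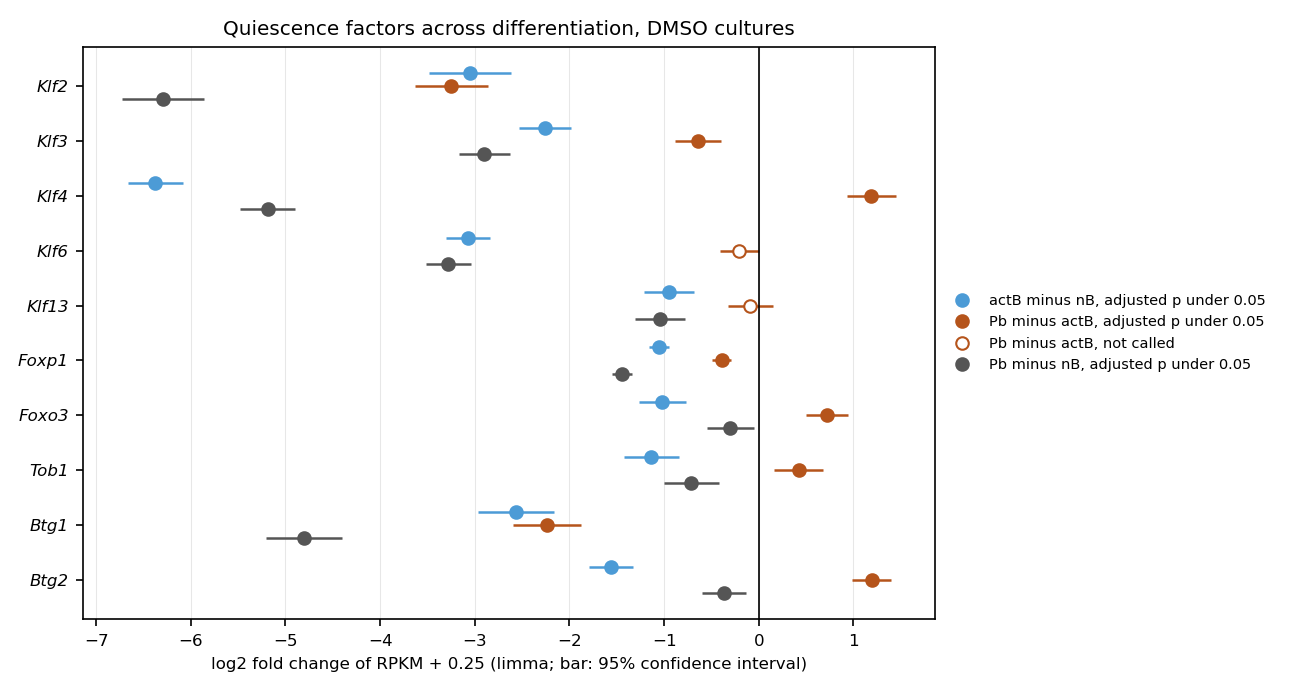
Log2 fold change of RPKM + 0.25 (points, limma estimate, and bars, 95% confidence interval) of each quiescence factor in DMSO cultures for actB minus nB, Pb minus actB and Pb minus nB, with n = 2 for nB and n = 3 for the others. Filled points were called at an adjusted p under 0.05. All 10 genes lie left of 0 against nB, and in Pb against actB *Klf4*, *Foxo3*, *Tob1* and *Btg2* lie to the right and *Klf2*, *Klf3*, *Foxp1* and *Btg1* to the left.

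Proliferation genes gave the opposite picture to the 10 factors on activation, with 12 of 12 tested higher in actB than in nB, led by *Ccnb1*, the mitotic cyclin B1 (4.97), and the checkpoint kinase gene *Bub1* (4.95). In Pb against actB 2 were higher and 4 lower, led by *Mki67* (0.63) and *Mcm3* (-0.60). Among 18 other lymphocyte quiescence genes, 14 were lower and 3 higher in actB than in nB. The leading genes were *Tcf7* (-3.55), which encodes a T cell transcription factor and was lower together with the T cell markers, and *Zfp36* (-3.17), which encodes a protein that destabilises messenger RNA. In Pb against actB 6 were higher and 9 lower, led by *Bach2*, a repressor of plasma cell differentiation (-2.53), and *Socs3*, an inhibitor of cytokine signalling (-2.50). Of 16 immediate early genes tested, 13 were lower and 1 higher in actB than in nB, led by *Fosb* (-8.80) and *Fos* (-8.57). In Pb against actB 8 were higher and 6 lower, led by *Atf3* (-2.80) and *Fos* (2.26).

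**Figure D4:**
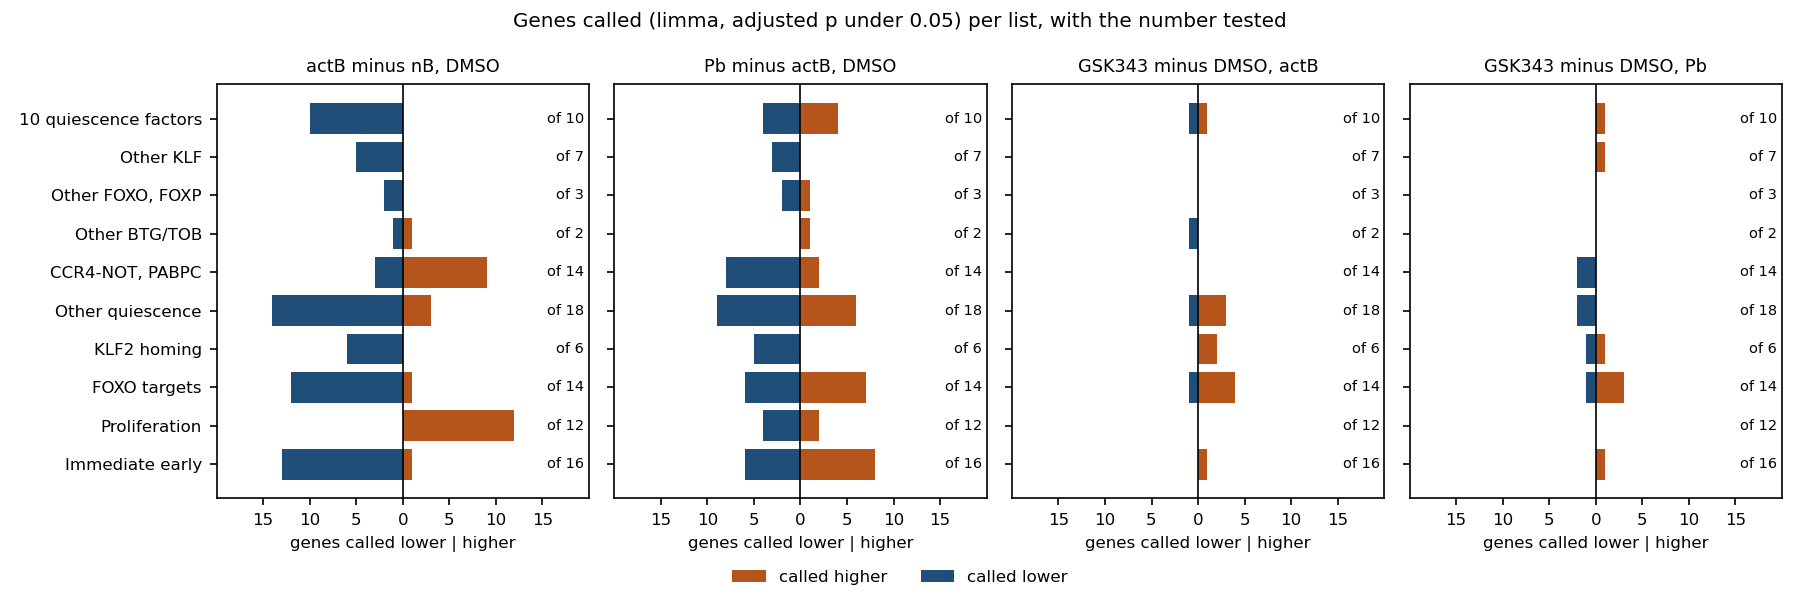
Number of genes called higher (right) or lower (left) by limma at an adjusted p under 0.05 in each list, with the number tested at the right of each row, for 4 comparisons. In actB against nB 10 of 10 quiescence factors and 6 of 6 homing targets were lower and 12 of 12 proliferation genes higher, and with GSK343 in actB 5 of 14 FOXO targets were called and none of 12 proliferation genes (limma, the same rule).

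The question of the drug comparison was how EZH2 inhibition changes expression in each sorted population. In actB, GSK343 raised *Klf3* and lowered *Foxp1*, and the other 8 factors were not called. Of all genes tested 8.2% were called higher and 2.16% lower in this comparison, so 1 gene in each direction among 10 is near the background. *Klf3* measured 8.90, 7.29 and 8.33 RPKM with GSK343 against 6.02, 5.41 and 5.54 with DMSO, with all drug libraries above all controls (log2 fold change 0.51 ± 0.11, adjusted p = 0.0138). The call was lost without actB GSK343 replicate 1 (0.45, adjusted p = 0.0562) or replicate 3 (0.49, adjusted p = 0.0515). *Foxp1* measured 26.0, 26.9 and 25.1 RPKM with GSK343, below all DMSO libraries (-0.20 ± 0.04, adjusted p = 0.0135). It was lost without actB DMSO replicate 1 (-0.19, adjusted p = 0.054), without actB GSK343 replicate 3 (-0.18, adjusted p = 0.0622), and where the actB groups were fitted alone (adjusted p = 0.0769).

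*Klf2* measured 51.0, 38.9 and 40.0 RPKM with GSK343 in actB, above all DMSO libraries, but the difference did not pass the test (0.38, 95% interval -0.01 to 0.77, adjusted p = 0.209). *Btg2* measured 49.8, 57.3 and 49.8 RPKM, and DMSO replicate 2 overlapped these (0.25, 95% interval 0.04 to 0.46, adjusted p = 0.13). With the replicate block the difference in *Btg2* passed the test (adjusted p = 0.0179), as it did without actB DMSO replicate 2 (0.37, adjusted p = 0.00945) and without replicate 2 of every cultured group (0.30, adjusted p = 0.00919). For the other 6 factors drug and DMSO libraries overlapped in actB. *Klf4* measured 0.162, 0.226 and 0.195 RPKM with GSK343 (95% interval of the log2 fold change -0.39 to 0.13), *Klf6* 13.8, 18.6 and 16.2 (-0.13 to 0.29) and *Klf13* 32.0, 35.5 and 30.2 (-0.17 to 0.30). *Foxo3* measured 3.25, 4.24 and 3.20 RPKM (-0.23 to 0.21), *Tob1* 5.17, 5.09 and 4.54 (-0.40 to 0.11) and *Btg1* 41.1, 56.2 and 39.7 (-0.37 to 0.35). None of these was called. The homing targets *Itgb7* (1.04) and *S1pr1* (0.57) were higher with GSK343 in actB, 2 of 6 tested. FOXO targets had 4 higher and 1 lower of 14, led by *Irs2* (0.71) and *Bcl2l11* (0.41), and the other lymphocyte quiescence genes had 3 higher and 1 lower of 18, led by *Socs3* (0.66) and the cell cycle inhibitor gene *Cdkn2d* (0.55). Plasmablast markers summed to 561 to 676 RPKM with GSK343 against 487 to 527 with DMSO, with 2 of 6 called higher, *Sdc1* (0.41) and *Jchain* (0.37). T cell markers summed to 7.37 to 8.34 RPKM in these libraries against 5.06 to 6.29 with DMSO. Myeloid markers summed to 8.31 to 14.1 RPKM against 4.14 to 5.44, most of it from *Itgam* (9.95 against 4.27). The part of these signals in the drug results was not tested.

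In Pb, GSK343 raised *Btg2*, 1 of 10 factors, where 7.9% of all genes tested were called higher and 5% lower. *Btg2* measured 127, 129 and 124 RPKM with GSK343 against 94.9, 108 and 100.1 with DMSO, so that all drug libraries were above all controls (0.33 ± 0.10, adjusted p = 0.0427). With GSK343 its mean was 97.0% of that in nB, and the ranges of these groups overlapped. The call was lost without any 1 of the 6 Pb libraries: without DMSO replicate 1, 2 or 3 the adjusted p was 0.143, 0.0509 and 0.106, and without GSK343 replicate 1, 2 or 3 it was 0.11, 0.101 and 0.0938, with log2 fold changes of 0.29 to 0.38. It was kept with the replicate block (adjusted p = 0.00351).

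Other factors differed in the same libraries by less than the test required. *Foxo3* measured 7.37, 6.95 and 7.17 RPKM with GSK343 against 6.00 to 6.04 with DMSO (0.24, 95% interval 0.02 to 0.46, adjusted p = 0.146). *Tob1* measured 10.5, 9.47 and 7.84 RPKM against 6.86 to 8.16 (0.30, 95% interval 0.04 to 0.56, adjusted p = 0.126), and *Btg1* 10.7, 13.0 and 10.7 against 8.40 to 10.2 (0.28, 95% interval -0.08 to 0.63, adjusted p = 0.321). *Foxp1* measured 20.7, 20.9 and 20.7 RPKM against 21.8 to 23.8 (-0.13, 95% interval -0.23 to -0.04, adjusted p = 0.0704). With the replicate block *Foxp1* (adjusted p = 0.0201), *Tob1* (0.0219) and *Btg1* (0.0316) passed the test, so that 4 of 10 were called, where the block called 13.7% of all genes higher and 10.9% lower. *Btg1* was not called where the block numbered the merged nB sample as replicate 2 instead of 1, a fit that called 3. Without replicate 2 of every cultured group 2 of 10 were called, *Btg2* and *Btg1*, beside 9.97% of all genes higher and 7.52% lower.

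*Klf2* did not differ detectably in Pb (3.31, 3.74 and 2.72 RPKM with GSK343), with an interval of -0.39 to 0.38, nor did *Klf3* (4.20, 3.99 and 4.08 RPKM, interval -0.04 to 0.44), *Klf4* (1.01, 1.13 and 0.947 RPKM, interval -0.06 to 0.46), *Klf6* (12.3, 14.5 and 12.5 RPKM, interval -0.22 to 0.20) or *Klf13* (30.7, 33.3 and 29.2 RPKM, interval -0.15 to 0.33). Among the other lists, *Klf8* was higher (0.41), and *Cnot6l* (-0.29) and *Cnot7* (-0.28), which encode deadenylases, were lower, 2 of 14. FOXO targets had 3 higher and 1 lower of 14, led by the proapoptotic gene *Bcl2l11* (1.17) and *Bcl6* (0.71). The other lymphocyte quiescence genes had 0 higher and 2 lower of 18, and the homing targets 1 higher and 1 lower of 6. In these libraries 4 of 8 B cell markers were lower, led by *Fcer2a* (-1.56) and *Pax5* (-1.11). Of 6 plasmablast markers tested 1 was higher, *Sdc1*, which encodes the CD138 used in the sort (0.89), and 1 was lower. The part of these shifts in the drug results was not tested.

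**Figure D5:**
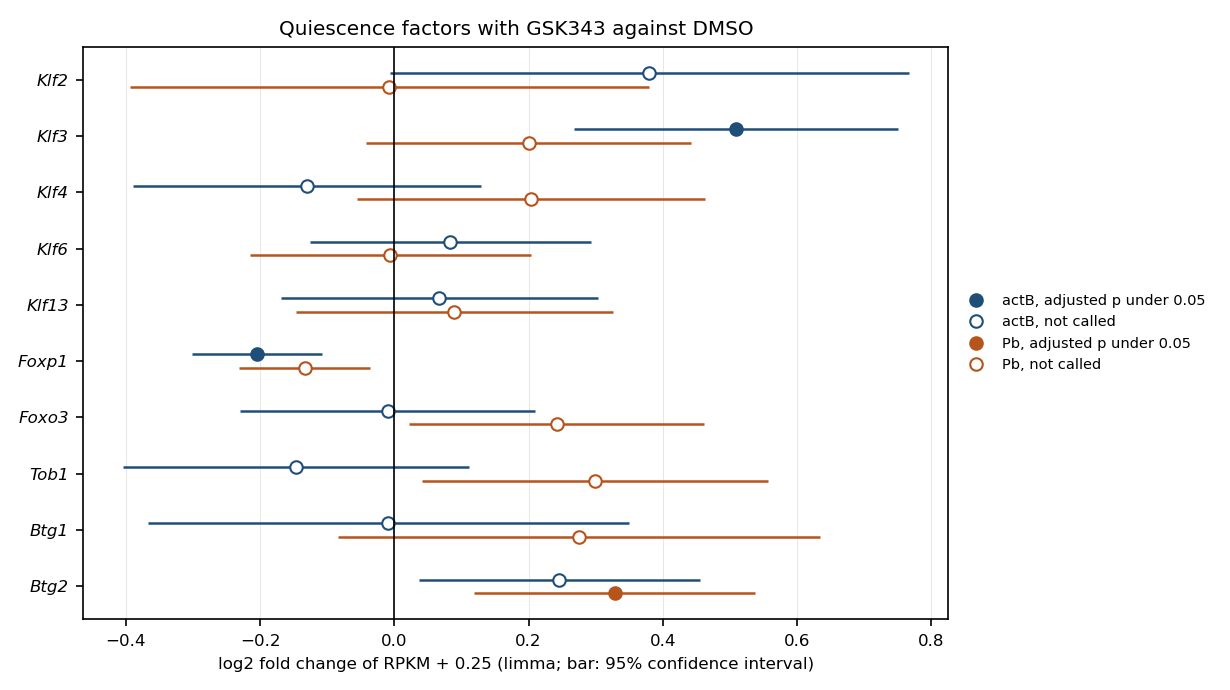
Log2 fold change of RPKM + 0.25 with GSK343 against DMSO (points, limma estimate, and bars, 95% confidence interval) of each quiescence factor in actB and in Pb (n = 3 per group). Filled points were called at an adjusted p under 0.05, and these are *Klf3* (0.51) and *Foxp1* (-0.20) in actB and *Btg2* (0.33) in Pb.

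The effects of GSK343 in Pb and actB were compared by an interaction term. None of the 10 factors was called by limma, and none by edgeR, where 0.248% of all genes tested, 28 in number, were called by limma. An unadjusted limma p under 0.05 was reached by 1 of the 10 factors and by 1017 of the 11299 genes tested. *Klf3* and *Foxp1*, called in actB, had differences between Pb and actB of -0.31 (95% interval -0.65 to 0.03) and 0.07 (-0.07 to 0.21). *Btg2*, called in Pb, had a difference of 0.08 (-0.21 to 0.38). The data therefore do not show that the drug effect on any of these genes differed between actB and Pb.

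The genes whose levels followed those of each factor most closely over the 14 libraries were taken by Pearson r of log2(RPKM + 0.25). For *Klf2* these were *Sorl1* (r = 0.996) and *Msn* (0.996), for *Klf3* *Fry* (0.992) and *Plaur* (0.991), for *Klf6* *Trpm2* (0.997) and *Fyb* (0.997), and for *Klf13* *Tbc1d20* (0.980) and *Fbxl17* (0.979). For *Foxp1* they were *Tor1aip1* (0.993) and *Vezf1* (0.992), and for *Foxo3* *Ttc17* (0.982) and *Prcp* (0.981). For *Tob1* they were *Maml3* (0.968) and *Samd4b* (0.955), for *Btg1* *Smim14* (0.999) and *Ifngr1* (0.997), and for *Btg2* *Cant1* (0.986) and *Furin* (0.985). Among the 45 pairs of the 10 factors r ran from -0.30 for *Klf2* and *Btg2* to 0.98 for *Foxo3* and *Btg2*, and *Klf2* and *Btg1* also had r of 0.98. In order of group mean, *Btg1* (46.3 RPKM) and *Btg2* (44.3) led in actB with DMSO, with overlapping ranges. *Klf2* (33.2), *Klf13* (31.3) and *Foxp1* (30.0) came next and overlapped with their neighbours among these 3, followed by *Klf6* (15.2), by *Klf3* (5.66) and *Tob1* (5.51), which overlapped, and by *Foxo3* (3.57) and *Klf4* (0.237). In Pb with DMSO the order was *Btg2* (100.9), *Klf13* (29.1), *Foxp1* (22.8), *Klf6* (13.1), *Btg1* (9.44), *Tob1* (7.45), *Foxo3* (6.02), *Klf3* (3.56), *Klf2* (3.33) and *Klf4* (0.867), in which *Klf3* and *Klf2* alone overlapped as neighbours.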

How the data were processed

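RNA of 5 groups of mouse B cells was sequenced as 50 bp paired-end reads from a stranded mRNA kit. The authors mapped reads to mm9 with TopHat2, counted those overlapping exons of each Entrez gene with GenomicRanges 1.22.4, and deposited RPM values (columns sum to 1000000), although the table is named for RPKM. Whether counting used strand is not given in the sources used here. Dividing RPM by the deposited length in kilobases gave RPKM. Of the values, 100% were whole reads within 0.05 of a read, so reads were recovered. Rows with no symbol (92, at most 0.0905% of reads) were left out. A count of 0 allows up to 3 reads, or 0.114 to 0.154 RPM, which covers counting error only.

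The 11299 genes that reached 1 RPKM in 3 or more of the 15 columns entered a limma fit (3.58.1, R 4.3.3, eBayes with a trend) of log2(RPKM + 0.25), over 14 libraries with 9 residual degrees of freedom. P-values are two-sided and Benjamini-Hochberg adjusted over all genes tested, with calls at 0.05. The script was tested on simulated data. Fold changes on this scale understate changes of low genes.

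The study's methods name no replicate term, so none was used. Replicate numbers, from the sample titles, pair the samples: deviations from group means correlated at 0.158 to 0.502, 0.435 to 0.713 and 0.219 to 0.356 for numbers 1, 2 and 3 (6 pairs each) and at -0.603 to 0.37 between numbers (36 pairs). Alternatives were other pseudocounts and filters, median and quantile scaling, the compared groups alone, the block, all columns as deposited, edgeR 4.0.16 (TMM, RLE) on recovered reads, and each library left out. A fit without the replicate 2 libraries of all cultured groups was added after seeing the data.

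The 10 genes, lists and tests were chosen with earlier results of these data known. From a list, only the 2 called genes with the largest absolute fold change in a comparison are named, besides the markers used to check cell types, and for each factor the 2 most correlated genes. Where a gene that this rule picks is not named, its result is not reported here. Promoters are from RefSeq.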

Additional observations from a re-analysis of the deposited data

Results flagged for a closer look

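With GSK343, *Klf4* was lower than its same-numbered DMSO library in all 3 actB pairs and higher in all 3 Pb pairs. The difference of the effects, Pb minus actB, was 0.33 on the log2 scale and did not pass the interaction test (limma adjusted p = 0.627). With the replicate block, the merged nB sample numbered 1, the limma adjusted p was 0.271. Each actB library held 13 to 20 reads of this gene.

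*Tob1* was likewise lower with GSK343 in all 3 actB pairs and higher in all 3 Pb pairs, with a difference of 0.45 (adjusted p = 0.419, unadjusted p = 0.0209). With the same replicate block its limma adjusted p was 0.0851. Neither gene is therefore shown to respond differently in the actB and Pb populations.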

How the results depend on the processing

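All 10 factors stayed lower in actB than in nB under the 13 alternatives and the 5 fits that left out a library. The count was 8 to 9 for Pb against actB (8 without any 1 library) and 9 to 10 for Pb against nB (8 to 10 without 1 library). For GSK343 in actB it was 2, with 1 where the groups were fitted alone and 0 to 3 without 1 library. It was 3 with either replicate block and with replicate 2 left out together, where 10.4% of all genes were called higher and 4.97% lower. For GSK343 in Pb the count was 1, with 0 with no filter, quantile normalization or edgeR RLE. It was 2 with the groups alone, all 15 columns or replicate 2 left out together. With the Pb groups alone 7.06% of all genes were called higher and 4.04% lower, and with all 15 columns 9.2% and 6.14%. With the replicate block the count was 4 where the merged nB sample was numbered 1. It was 3 where that sample was numbered 2, beside 11.7% of all genes higher and 8.8% lower. Without any 1 library the count was 0. The interaction gave 0 throughout. Besides the calls named beside the results, the replicate block changed no call. *Foxo3* in Pb against nB was also lost with median scaling (adjusted p = 0.0605) and quantile normalization (0.0652), and *Btg2* with GSK343 in Pb with no filter (0.0709), quantile normalization (0.106) and edgeR RLE (0.0539). *Foxo3* with GSK343 in Pb was called with the groups alone (0.0361) and *Foxp1* with all 15 columns (0.0487). The cause was not tested. Over all genes tested, GSK343 in actB gave 926 higher and 244 lower, but 339 and 47 with the groups alone, 1659 and 758 with the block, 682 and 421 with median scaling and 606 and 378 with quantile normalization. In Pb 893 higher and 565 lower became 1553 and 1227 with the block, and for the interaction 11 and 17 became 76 and 146 with the block, 42 and 104 with replicate 2 left out together, 22 and 13 with median scaling and 2 and 2 with the groups alone.

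Sign changes concerned log2 fold changes that were not called. For Pb against actB, *Klf13* was at 0.026 with median scaling, 0.0086 with edgeR RLE, 0.024 with replicate 2 left out together and -0.18 to 0.047 without 1 library. For GSK343 in actB, *Btg1* was at 0.011 with quantile normalization and 0.027 with replicate 2 left out together. Without 1 library the range there was -0.17 to 0.19 for *Btg1*, -0.13 to 0.064 for *Foxo3*, -0.026 to 0.20 for *Klf13* and -0.020 to 0.19 for *Klf6*, and for GSK343 in Pb it was -0.18 to 0.19 for *Klf2* and -0.079 to 0.035 for *Klf6*. For the interaction, *Klf13* was at -0.079 with replicate 2 left out together, and without 1 library the range was -0.12 to 0.12 for *Klf13*, -0.20 to 0.014 for *Klf6* and -0.041 to 0.15 for *Btg2*.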

Other observations

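Summed RPKM of *Klf2*, *Klf3*, *Klf4*, *Klf6* and *Klf13* was 532 to 533 in nB. In actB this sum was 84.2 to 87.1 with DMSO and 94.9 to 105.9 with GSK343, of which *Klf2*, not called, averaged 33.2 and 43.3. In Pb the sum was 47.3 to 51.7 with DMSO and 49.5 to 56.7 with GSK343. The 10 quiescence factors took 0.0912% to 0.0982% of the reads in Pb with DMSO and 0.101% to 0.108% with GSK343. Among them *Btg2* averaged 100.9 and 126.6 RPKM in these groups. In actB the shares overlapped, at 0.104% to 0.123% with DMSO and 0.105% to 0.122% with GSK343.

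The mean of *Foxo3* in Pb with GSK343 was 95.8% of that in nB, with overlapping ranges (6.95 to 7.37 against 7.13 to 7.82 RPKM). The fold of Pb over actB within the same treatment was 2.01 for *Foxo3* with GSK343 and 1.68 with DMSO, and 1.88 and 1.35 for *Tob1*. The differences between these folds did not pass the interaction test for *Foxo3* (adjusted p = 0.695) or for *Tob1* (adjusted p = 0.419).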
